A study of Homo sapiens with 13 samples.

Results

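In TE-7, a human epithelial cell line from the esophagus, 48 of 23637 measured genes had more RNA with interleukin-13 (IL-13) than without it at 2 and 6 hr, but little or no excess, or a deficit, at 24 hr. They were chosen from the measured values. For each time, d is the log2 of IL-13 over control after 0.1 was added to each RPKM (a read count scaled by gene length and library size). A gene was taken when d was at least 0.5 at both 2 and 6 hr and under 0.3 at 24 hr, when its locus spanned at least 300 bp, and when it reached an RPKM of 1 in any library of 2 or 6 hr. Names starting with KRT, CLDN, KLK, CCL, IL, SERPINB, SOCS, DUSP or IFI were dropped, and none of the dropped genes met the rest of the rule. All RNA contrasts below were used by that choice, so their values describe the 48 genes and no test is given on them.

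The groups were TE-7 cells that had received IL-13 (100 ng/ml) and were taken after 2, 6 or 24 hr, and control cells without added IL-13 at the same 3 times. All are the same cell line, and each group is 1 RNA library. The active histone marks H3K27Ac, H3K9Ac and H3K4me3 were profiled by ChIP-seq (sequencing of DNA bound to a marked histone) with and without 6 hr of IL-13, with 1 library for each mark and treatment. Since each group is 1 library, the spread between cultures is unknown. In bulk RNA a gene active in fewer cells cannot be told apart from less RNA per cell.

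The RNA libraries rested on 13.6 to 42.6 Mreads (megareads, read sets summed), as read from the step size of low values in genes shorter than 200 bp, and 1 read in 1 kb of transcript was worth at most 0.0737 RPKM. The controls at 2 and 6 hr had 359 identical values above 0, against 0 in every other pair of libraries, so part of their reads is the same and the early comparisons are not independent of each other. A read set of the same size, 15.7057 Mreads, was found in both of these controls, of 42.5643 Mreads at 2 hr and 30.9864 Mreads at 6 hr. None of the 359 belonged to the 48 genes. That does not show their control values to be free of shared reads, since values that differ can still hold them. The 24 hr pair carries a date in its column names that the other tables lack, so change with time and change of library set cannot be told apart. Each library of 2 and 6 hr also summed 2 read sets, against 1 for each library of 24 hr. All 6 markers of squamous epithelium, among them KRT5 and TP63, were expressed in the line, with summed levels of 2246 to 3032 RPKM in the IL-13 libraries and 2894 to 3383 RPKM in the controls. The 12 brain markers summed to 48.002 RPKM with IL-13 and 76.4 RPKM without it at 2 hr, and GFAP, SNAP25 and MT3 were listed at 0 with IL-13 at that time. None of the 48 genes is on that list, and the part of those transcripts in the 2 hr values was not tested.

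IL-13 binds a receptor of IL4R and IL13RA1 chains, whose Janus kinases phosphorylate STAT6, and STAT6 dimers then bind DNA and turn on target genes within the first hours. Epithelial cells also answer cytokines with short-lived programs, in which negative regulators and unstable messages bring RNA back towards its starting level. In the esophagus, IL-13 is known as a driver of the epithelial response in eosinophilic esophagitis.

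Among 11865 genes that met the span and level limits, d reached 0.5 in 191 genes (1.61%) at 2 hr, in 222 genes (1.87%) at 6 hr and in 115 genes (0.969%) at both. Of those 115 genes, 48 (41.7%) were under 0.3 at 24 hr and 67 were not. Being under 0.3 at 24 hr is common, at 91.3% of all genes tested. The 48 genes were modestly higher, with a median d of 0.74 at 2 hr and 0.77 at 6 hr, and a median of -0.02 at 24 hr. The 67 genes that were still higher had medians of 0.93, 1.04 and 0.67. Only 7 of the 48 differed 2-fold at 2 hr (background 0.379%) and 13 at 6 hr (background 0.514%), and FAM115C, ADAMTS15, SLC24A3 and ID3 did so at both. The difference was larger at 6 hr for 27 genes and at 2 hr for 21. At 24 hr 25 genes were lower with IL-13 than without, where 44.8% of all tested genes had a d below 0, and ID3, CA2, PCDH7, SLC24A3 and PHOSPHO2-KLHL23 had a d of -0.5 or less (background 3.82%).

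**Figure D1:**
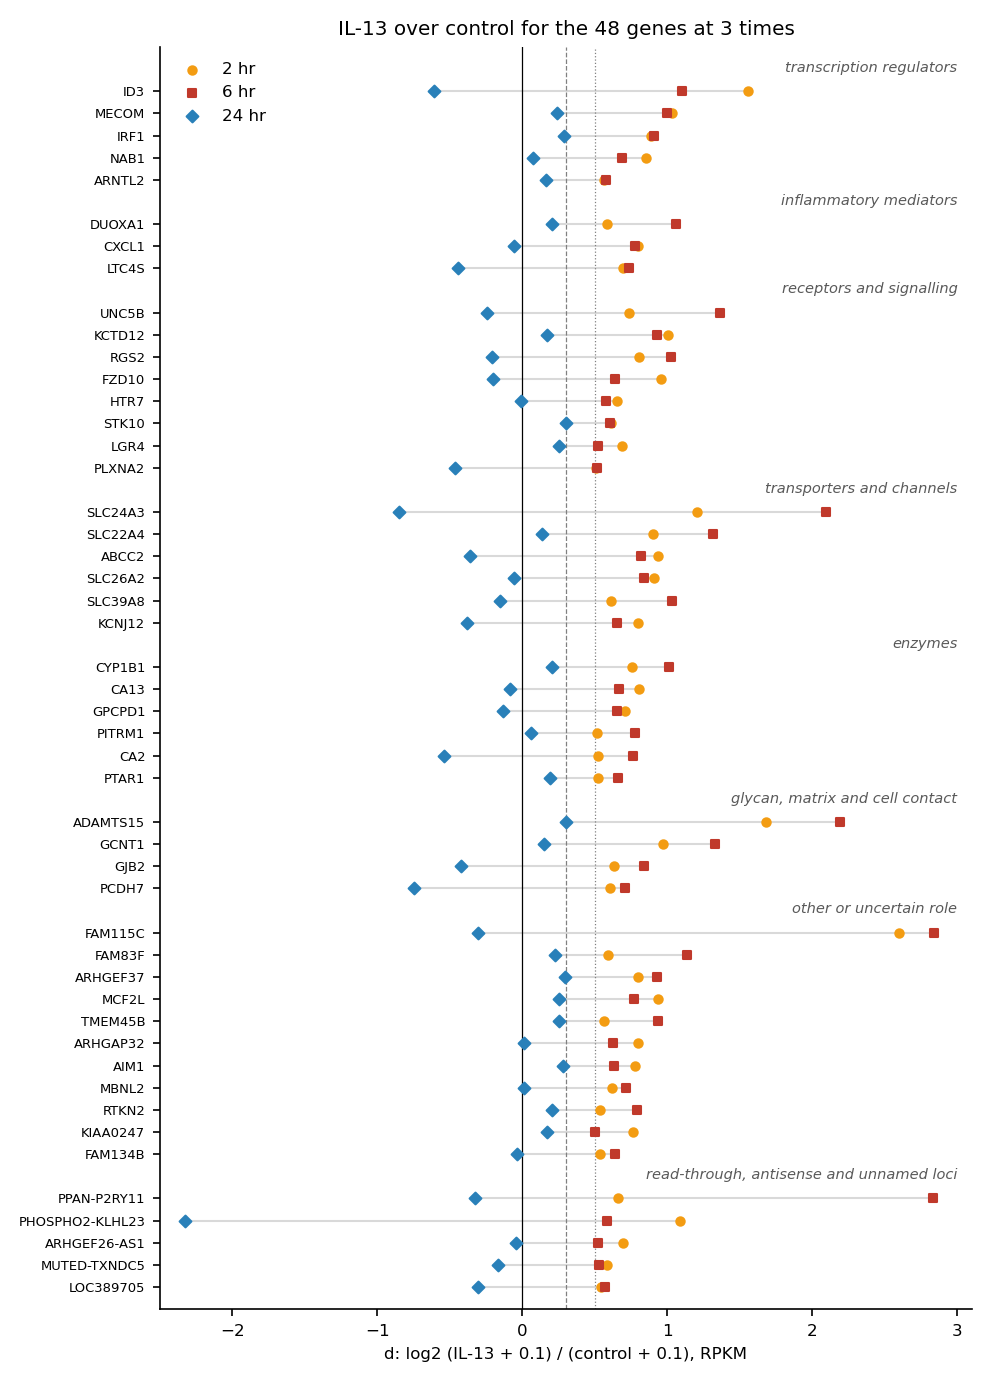
The value d is plotted on the horizontal axis for each of the 48 genes at 2, 6 and 24 hr, 1 library per value, with the genes grouped by role. The dotted line is the early limit of 0.5 and the dashed line the limit of 0.3 at 24 hr, so early points lie to the right of the first and the 24 hr point to the left of the second for every gene by choice, and the 24 hr point of 25 genes lies below 0.

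In the authors' deposited table, 17 of the 48 genes passed an adjusted p under 0.05 at 6 hr (background 0.556% for genes higher with IL-13). These were FAM115C, ADAMTS15, SLC24A3, ID3, GCNT1, MECOM, KCTD12, RGS2, IRF1, CYP1B1, SLC26A2, ARHGEF37, CXCL1, TMEM45B, GJB2, AIM1 and PITRM1. None of the 48 was called lower at 6 hr (background 0.0421%). None passed at 2 hr, where the authors' deposited table holds 2 tested genes that were higher (0.0169%) and 1 that was lower (0.00843%). At 24 hr PHOSPHO2-KLHL23 passed as lower with IL-13 (background 0.607%) and none passed as higher (background 0.32%) in the authors' deposited table. Both early IL-13 values lay above both early control values in 43 of the 48 genes (12.1% of all tested genes). The exceptions were PPAN-P2RY11, SLC24A3, RGS2, MCF2L and PCDH7, whose levels at 2 hr exceeded those at 6 hr in both conditions. The highest of the 6 libraries was a 24 hr library in 19 of the 48 genes, against 58% of all tested genes.

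By roles assigned by hand, 5 of the 48 genes encode transcription regulators. ID3 (chromosome 1, 23884421 to 23886285, minus strand, hg19) encodes a helix-loop-helix protein without a DNA-binding region, which captures other helix-loop-helix factors. It stood at 53.1, 55.6 and 58.3 RPKM with IL-13 at 2, 6 and 24 hr, against 18.01, 25.9 and 89.1 RPKM in the controls. The IL-13 libraries held ID3 near a constant level while the control climbed past it. IRF1 (chromosome 5, 131817301 to 131826465, minus strand), a transcription factor best known as a target of interferon, stood at 13.4, 17.3 and 20.0 RPKM with IL-13, against 7.20, 9.14 and 16.4 RPKM in the controls. Its control level also rose towards the treated level, and IL-13 was still the higher of the 24 hr pair at a d of 0.28.

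NAB1, a corepressor that binds EGR proteins, stood at 43.0, 38.2 and 54.7 RPKM with IL-13 at 2, 6 and 24 hr, against 23.8, 23.7 and 52.0 RPKM in the controls. MECOM, a zinc finger factor also called EVI1, stood at 5.55, 6.54 and 6.23 RPKM with IL-13 and at 2.67, 3.22 and 5.26 RPKM in the controls. For both, the control at 24 hr was the highest of the 3 controls. ARNTL2, a partner of CLOCK, was the exception in the class. It declined in both conditions, with 32.8, 28.2 and 16.1 RPKM in IL-13 libraries and 22.2, 18.9 and 14.4 RPKM in controls.

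The promoters of IRF1 and ID3 are shown because they are the members with a STAT-type motif before the start of the promoter entry. That of CXCL1 is shown because it is the chemokine of the group and holds an NF-kB-type motif. That of MBNL2 is shown because it alone holds the AP-1 motif. The sequences are RefSeq promoters of build GRCh38.p14, 250 bases before to 50 after the start, for which 34 of the 48 genes had an entry. Each line gives 60 bases before the start of the promoter entry, 5′ to 3′ on the strand of the gene, with the motif in capitals. Entries were matched by gene name, so their starts can differ from the hg19 starts used for RNA and marks. MBNL2 had 2 entries, and its stretch may belong to another start than the one used for its RNA.
IRF1: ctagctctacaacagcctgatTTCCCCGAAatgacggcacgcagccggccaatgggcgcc
ID3: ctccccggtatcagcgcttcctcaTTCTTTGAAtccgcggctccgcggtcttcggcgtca
CXCL1: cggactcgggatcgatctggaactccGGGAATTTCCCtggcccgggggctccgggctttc
MBNL2: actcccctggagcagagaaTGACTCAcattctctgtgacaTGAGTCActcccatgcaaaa
The stretch of IRF1 lies at chr5:132490859-132490918 (minus strand), that of ID3 at chr1:23559647-23559706 (minus strand), that of CXCL1 at chr4:73869288-73869347 (plus strand) and that of MBNL2 at chr13:97141729-97141788 (plus strand), all in GRCh38.p14. The capitals in CXCL1 are 2 overlapping matches.

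Motifs were searched on both strands of the whole window. TTCNNNGAA, a STAT motif, was found for 3 of the 34 genes (IRF1, ID3 and, after the start, KIAA0247) and in 7.66% of 35116 promoters. The 34 are genes, some with several entries, such as MCF2L with 7, while the 35116 are promoter entries. The shares here are thus not of like units. The spacing favoured by STAT6, TTC and GAA with 4 bases between them, was in 0 of 34 and in 6.44% of all. The AP-1 motif TGANTCA was in MBNL2 alone, against 7.71% of all, and the E-box CACGTG in SLC22A4, SLC26A2 and ARHGAP32, against 7.26% of all. A loose NF-kB-type motif, GGG and CC with 5 bases between them, was in 24 of 34 and in 58.7% of all promoters. TGACGTCA, the cyclic AMP response element, was in 0 of 34 and 1.85% of all, and TATAAA in ABCC2 alone, against 11.5% of all. A match is a run of letters and not a shown binding site, and no share was tested.

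Relatives of the transcription regulators behaved otherwise. ID1 and ID2, which share the helix-loop-helix fold of ID3, were lower with IL-13 at each time, with d of -0.45, -0.55 and -1.37 for ID1 and -0.28, -0.42 and -1.74 for ID2, against 1.55, 1.10 and -0.61 for ID3. At 24 hr ID1 was at 239 RPKM with IL-13 and 618 RPKM in the control. ID3 was the 1 gene of the TGF-beta and BMP list, of 31 expressed members, with d of 0.5 or more at 2 and 6 hr, a level reached by 1.02% of all 12005 expressed genes. The list had medians of -0.01 and -0.07 at those times, where all expressed genes had 0.00 at both, and at 24 hr 8 members were at -0.5 or less, against 4.06% of all expressed genes. NAB2, the other NAB corepressor, had d of -0.39, -0.31 and -0.19, and ARNTL, the close relative of ARNTL2, had 0.03, -0.01 and 0.18. Among 41 expressed interferon-stimulated genes, IRF1 and DDX58, an RNA sensor, reached 0.5 at both early times, against 1.02% of all expressed genes.

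**Figure D2:**
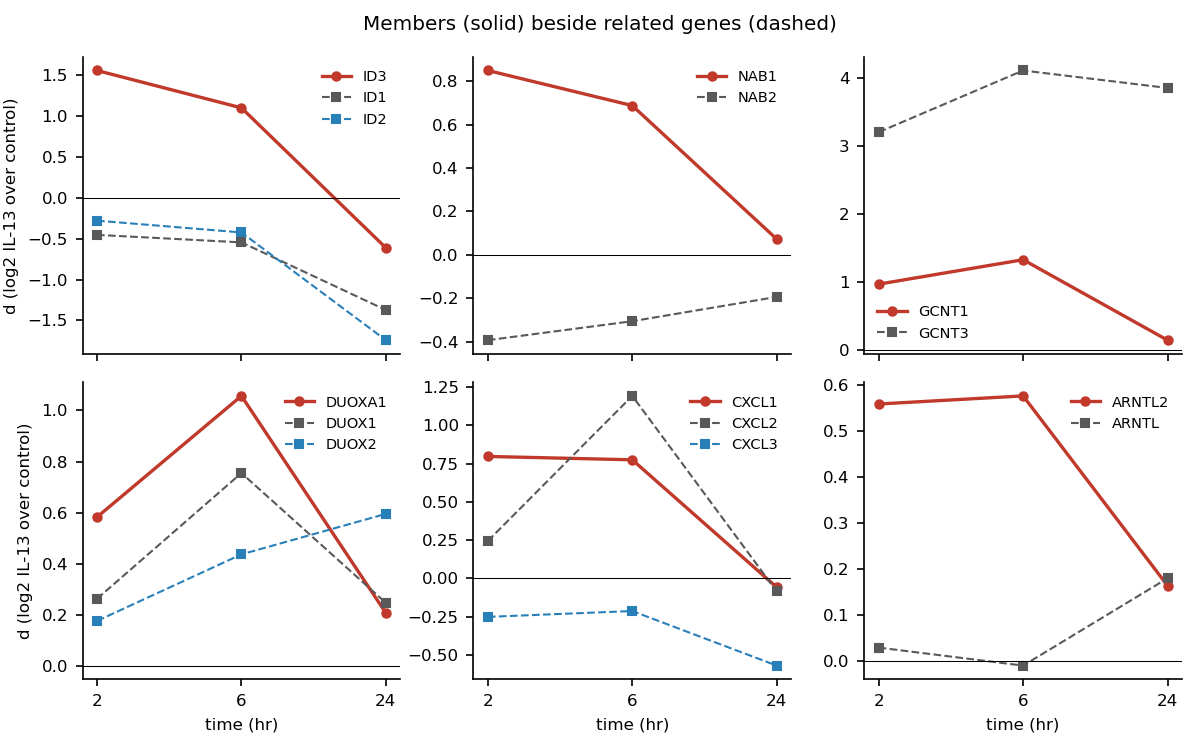
Each panel plots d against time for a member of the group (solid line) and for related genes (dashed lines), 1 library per condition and time, and the vertical scales differ between panels. ID3 is above 0 at 2 and 6 hr while ID1 and ID2 are below 0 at all 3 times, and GCNT1 returns towards 0 at 24 hr while GCNT3 stays at 3.85.

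Genes classed by hand under inflammatory mediators came next, and in all 3 the control rose by 24 hr. CXCL1, a chemokine that attracts neutrophils (chromosome 4, 74735109 to 74737019, plus strand), stood at 88.4, 74.7 and 158 RPKM with IL-13 at 2, 6 and 24 hr, against 50.8, 43.6 and 164 RPKM in the controls. Both early treated values exceeded both early controls, and the 24 hr values were close together at a level above all earlier ones. Of its near relatives CXCL2 had d of 0.24, 1.19 and -0.09 and CXCL3 -0.25, -0.21 and -0.57, so CXCL3 did not share the early excess. CXCL1 was the 1 gene of 23 expressed NF-kB targets and inflammatory cytokines with d of 0.5 or more at both early times. That level was reached by 1.02% of all expressed genes.

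DUOXA1, the maturation factor that lets the oxidase DUOX1 leave the endoplasmic reticulum, stood at 20.6, 26.0 and 29.2 RPKM with IL-13, against 13.7, 12.4 and 25.3 RPKM in the controls. DUOX1 itself had d of 0.26, 0.75 and 0.25, a similar course at a smaller size, while DUOX2 had 0.18, 0.44 and 0.59. LTC4S, which makes leukotriene C4, stood at 1.26, 0.788 and 2.57 RPKM with IL-13, against 0.741, 0.435 and 3.54 RPKM in the controls. These are low levels, and at 24 hr IL-13 was the lower library. ALOX5 and ALOX5AP, the other leukotriene genes looked at, were at most at 0.0690 and 0.0893 RPKM in any library.

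Receptors and signalling proteins made up 8 of the 48 genes. UNC5B, a netrin receptor, stood at 16.1, 14.7 and 22.9 RPKM with IL-13, against 9.63, 5.66 and 27.2 RPKM in the controls. Its control level at 24 hr was 4.81 times that at 6 hr and overtook the treated one. PLXNA2, a semaphorin receptor, went the other way round, with a falling treated level. It stood at 13.5, 10.9 and 5.62 RPKM with IL-13 and at 9.43, 7.56 and 7.78 RPKM in the controls.

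RGS2, which speeds GTP hydrolysis by Gq proteins, stood at 28.5, 10.05 and 7.13 RPKM with IL-13, against 16.3, 4.88 and 8.24 RPKM in the controls. Its level was highest at 2 hr in both conditions, so the control at 2 hr exceeded the treated library at 6 hr. KCTD12, an auxiliary subunit of GABA-B receptors, stood at 22.1, 24.1 and 6.31 RPKM with IL-13, against 10.97, 12.6 and 5.60 RPKM in the controls. Early values of KCTD12 were about 2-fold apart, at 2.01-fold and 1.91-fold, and by 24 hr both conditions were below the early controls.

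Of the Wnt pathway list, 31 members were expressed and 2 reached 0.5 at both early times, against 1.02% of all expressed genes, both of them receptors among the 48 genes. LGR4, a receptor of R-spondins, stood at 12.03, 16.04 and 17.6 RPKM with IL-13, against 7.43, 11.1 and 14.7 RPKM in the controls. FZD10, a Wnt receptor, stood at 3.69, 2.62 and 3.65 RPKM with IL-13, against 1.86, 1.64 and 4.22 RPKM in the controls. The list as a whole had medians of -0.00, -0.06 and -0.01. HTR7, a serotonin receptor, was near 1 RPKM throughout, at 1.12, 1.05 and 1.20 RPKM with IL-13 and 0.675, 0.674 and 1.20 RPKM in the controls. STK10, a kinase of ezrin-family proteins, had d of 0.61, 0.60 and 0.30, the value nearest to the limit at 24 hr.

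The class of transporters and channels had 6 members, and in 4 of them the treated level at 24 hr was at least 0.5 lower on the log2 scale than at 6 hr while the control had not risen by as much. SLC24A3, a potassium-dependent sodium-calcium exchanger, stood at 2.26, 0.713 and 0.0183 RPKM with IL-13, against 0.924, 0.0903 and 0.114 RPKM in the controls. The last treated value is that of very few reads. SLC39A8, an importer of zinc and manganese, stood at 1.29, 2.27 and 0.772 RPKM with IL-13 and at 0.812, 1.06 and 0.872 RPKM in the controls. ABCC2, an export pump for conjugates, and KCNJ12, an inward rectifier potassium channel, ended at 0.297 and 0.0631 RPKM with IL-13 at 24 hr, against 0.409 and 0.113 RPKM in the controls. KCNJ12 has the near-identical copy KCNJ18, which is listed inside the span of KCNJ12 and at 0 in 5 of 6 libraries. How reads of the overlapping entries were assigned is not known.

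SLC22A4 and SLC26A2 kept their treated level and were met by the control. SLC22A4, a carrier of ergothioneine (chromosome 5, 131630145 to 131679899, plus strand), stood at 2.22, 2.22 and 1.86 RPKM with IL-13, against 1.14, 0.834 and 1.69 RPKM in the controls. SLC26A2, a sulfate transporter, stood at 3.19, 3.45 and 3.04 RPKM with IL-13, against 1.66, 1.89 and 3.17 RPKM in the controls. SLC22A4 and IRF1 start 196 kb apart at the cytokine gene cluster of chromosome 5, with 4 other gene starts between them. SLC22A5, the carnitine carrier in between, had d of 0.32, 0.27 and -0.02, and RAD50, on the far side of IRF1, 0.31, 0.32 and 0.18, under the limit at every time. C5orf56, next to IRF1, had 0.88, 0.29 and 0.48. This neighbourhood was looked at after the values had been seen.

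Enzymes numbered 6. CA2 and CA13 are carbonic anhydrases of the cytosol whose genes start 218 kb apart on chromosome 8. CA2 stood at 92.5, 108 and 95.5 RPKM with IL-13, against 64.6, 63.6 and 139 RPKM in the controls. CA13 stood far lower, at 1.92, 1.63 and 1.05 RPKM with IL-13, against 1.06, 0.988 and 1.13 RPKM in the controls. Both were higher early and lower at 24 hr with IL-13, with d of -0.54 for CA2 and -0.09 for CA13 at the last time. CA2 had an adjusted p of 1 at 6 hr in the authors' deposited table.

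CYP1B1, a cytochrome P450, stood at 11.9, 20.5 and 17.2 RPKM with IL-13, against 7.05, 10.1 and 14.9 RPKM in the controls. PITRM1, a peptidase of mitochondria, stood at 46.0, 52.6 and 22.5 RPKM with IL-13, against 32.1, 30.6 and 21.6 RPKM in the controls, and so lost its difference as both conditions declined. GPCPD1, which splits glycerophosphocholine, had d of 0.71, 0.65 and -0.13, and PTAR1, a prenyltransferase subunit, had 0.52, 0.66 and 0.19. Neither moved as much as 0.5 between 6 and 24 hr in the directions that set the other genes apart.

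Among genes of glycans, matrix and cell contact the treated level mostly fell away. ADAMTS15, a secreted metalloprotease (chromosome 11, 130318869 to 130346539, plus strand), stood at 7.97, 7.91 and 0.151 RPKM with IL-13, against 2.42, 1.65 and 0.104 RPKM in the controls. Its early ratios were 3.29-fold and 4.79-fold, the second highest mean d of the 48 genes. At 24 hr it was close to the limit of detection in both conditions, so its d of 0.30 there rests on few reads. Without the added 0.1 its 24 hr ratio was 1.45-fold. The log2 ratio in the authors' deposited table was 0.52, above the limit of 0.3. GCNT1, which starts core 2 branches on O-glycans, stood at 6.65, 10.6 and 1.77 RPKM with IL-13, against 3.35, 4.17 and 1.59 RPKM in the controls. GCNT3, a relative that also acts on mucin glycans, had d of 3.20, 4.11 and 3.85 and so kept its excess at 24 hr where GCNT1 did not.

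GJB2, the gap junction protein connexin 26, stood at 39.9, 38.01 and 22.3 RPKM with IL-13, against 25.7, 21.2 and 29.8 RPKM in the controls. The early treated values lay above both early controls, and at 24 hr the control was the higher of the pair. PCDH7, a protocadherin, stood at 8.53, 2.05 and 4.54 RPKM with IL-13, against 5.57, 1.22 and 7.70 RPKM in the controls.

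**Figure D3:**
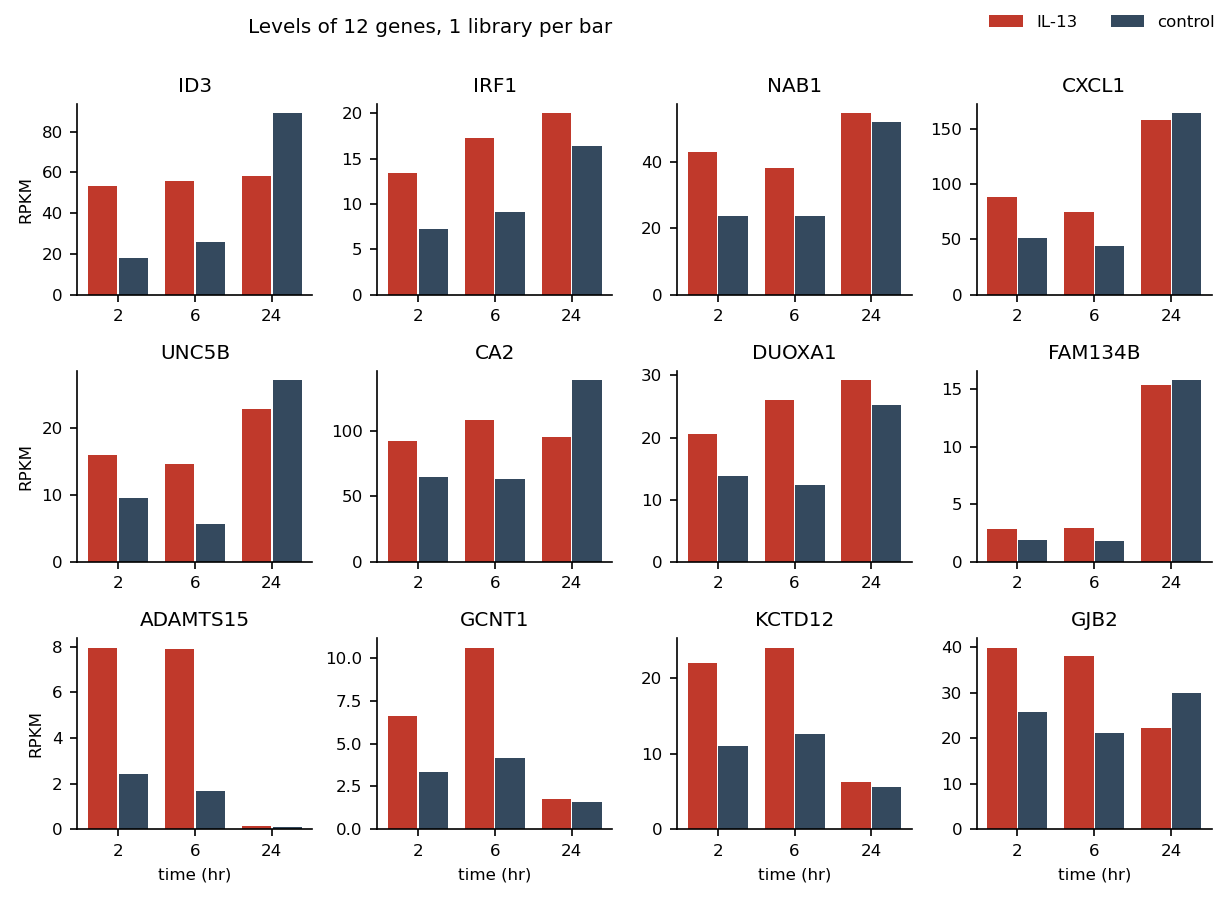
The level of 12 members in RPKM is shown at 2, 6 and 24 hr, with the IL-13 library on the left of each pair and the control on the right, 1 library per bar and a separate scale from 0 in each panel. In ID3, CXCL1, UNC5B, CA2 and FAM134B the 24 hr control is the highest bar, while in ADAMTS15, GCNT1 and KCTD12 both 24 hr bars are the lowest.

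FAM115C had the highest mean d of 2 and 6 hr among the 48 genes. It matched the RefSeq gene TCAF2, a factor associated with TRP channels, and stood at 2.40, 3.37 and 0.507 RPKM with IL-13, against 0.312, 0.386 and 0.651 RPKM in the controls. The ratio was 7.67-fold at 2 hr and 8.72-fold at 6 hr, while its relative FAM115A had d of 0.15, 0.17 and -0.09. On the log2 scale with 0.1 added, FAM83F and FAM134B had the largest increases from 6 to 24 hr of the 48 genes, in both conditions. By plain ratio PPAN-P2RY11 rose more in the controls than FAM134B, at 11.2-fold against 8.58-fold. FAM83F stood at 0.771, 1.11 and 12.9 RPKM with IL-13, against 0.479, 0.448 and 11.03 RPKM in the controls, and FAM134B, a receptor for autophagy of the endoplasmic reticulum, at 2.87, 2.92 and 15.4 RPKM with IL-13, against 1.95, 1.84 and 15.8 RPKM in the controls. At 24 hr both genes were far above their early levels with and without IL-13. MBNL2, a splicing regulator, stood at 17.8, 13.4 and 23.2 RPKM with IL-13, against 11.5, 8.12 and 23.1 RPKM in the controls. AIM1, TMEM45B and KIAA0247 had d of 0.78, 0.56 and 0.76 at 2 hr, 0.63, 0.94 and 0.50 at 6 hr and 0.28, 0.25 and 0.17 at 24 hr.

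ARHGEF37 stood at 3.64, 3.42 and 7.48 RPKM with IL-13, against 2.05, 1.75 and 6.09 RPKM in the controls. MCF2L stood at 2.00, 0.431 and 1.29 RPKM with IL-13, against 0.997, 0.211 and 1.07 RPKM in the controls, so it stood near 2-fold at both early times while both conditions dropped between them. ARHGAP32 stood at 6.35, 5.39 and 5.50 RPKM with IL-13, against 3.60, 3.46 and 5.45 RPKM in the controls, with nearly equal levels at 24 hr. RTKN2 had d of 0.53, 0.79 and 0.20.

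Another 5 loci are read-through, antisense or unnamed genes, for which reads cannot be assigned with certainty. PPAN-P2RY11 had d of 0.66, 2.83 and -0.33, while PPAN had 0.00, -0.04 and 0.05 and P2RY11 -0.80, -0.90 and 0.98. The read-through locus and P2RY11 thus differed in opposite directions at every time, and the loci overlap. PHOSPHO2-KLHL23 stood at 1.28 and 0.969 RPKM with IL-13 at 2 and 6 hr and was listed at 0 at 24 hr, against 0.548, 0.613 and 0.401 RPKM in the controls. Its parts PHOSPHO2 and KLHL23 had d of -0.33 and 0.04 at 2 hr. MUTED-TXNDC5, ARHGEF26-AS1 and LOC389705 were between 0.486 and 5.16 RPKM in all libraries.

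The end of the difference can be split into the change of each condition from its 6 hr to its 24 hr library. In each such change, time and library set cannot be told apart. In 29 of the 48 genes the control was at least 0.5 higher on the log2 scale at 24 than at 6 hr while the treated level had not fallen by 0.5. ID3, UNC5B, CXCL1, CA2, DUOXA1, NAB1 and IRF1 are of this kind. In 13 genes the treated level was at least 0.5 lower and the control had not risen by 0.5, as in ADAMTS15, GCNT1, KCTD12, GJB2, PLXNA2 and SLC24A3. FAM115C did both, and GPCPD1, RTKN2, STK10, LGR4 and PTAR1 did neither. Counted singly, the treated library was 0.5 or more lower at 24 hr in 14 of the 48 genes, or 29.2%, against 15.3% of all tested genes. The control was 0.5 or more higher in 30, or 62.5%, against 32.4% of all tested genes. The treated library was 0.5 or more higher in 11, or 22.9%, against 31.2% of all tested genes, as in UNC5B, CXCL1 and NAB1. The control was 0.5 or more lower in 6, or 12.5%, against 16.5% of all tested genes, as in ADAMTS15, GCNT1 and KCTD12. Both conditions moved the same way in those genes, so the classes do not mean a change in 1 condition alone. The median change from 6 to 24 hr was -0.04 in IL-13 libraries and 0.63 in controls for the 48 genes, against 0.17 and 0.18 for all tested genes. For the 67 genes that were still higher at 24 hr the same medians were 0.18 and 0.61. The rule itself fixes that the control gained on the treated library in each of the 48 genes. When the changes were centred on the median of all tested genes the counts were 17 lower in the treated library and 23 higher in the control.

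**Figure D4:**
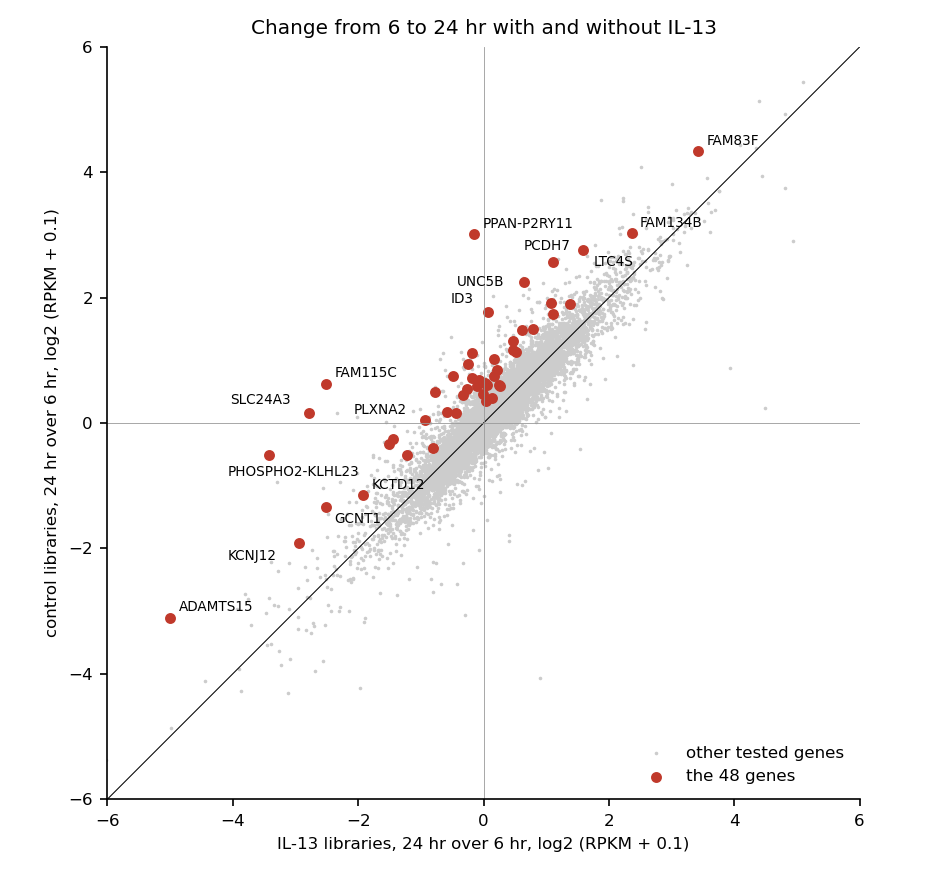
The log2 change from 6 to 24 hr in control libraries (vertical) is plotted against that in IL-13 libraries (horizontal) for the 48 genes and for the other tested genes, 1 library per condition and time. All 48 genes lie above the diagonal of equal change because of the rule, with ID3 and UNC5B high on the control axis and ADAMTS15, KCNJ12 and SLC24A3 far to the left.

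The histone marks are independent of the choice, since the rule used RNA only. The deposited tables do not state which of the 2 libraries of a mark was treated, so M is the log2 ratio of library 1 over library 2 as the authors' deposited table gives it, and no direction of treatment is assigned. A peak was counted when it was listed at the start of the gene and reached a level of 30 in the higher library, where the level was computed from M and the mean level A. A start peak was found for H3K27Ac in 36 of the 48 genes, or 75%, against 87% of all tested genes, for H3K9Ac in 33, against 86.7%, and for H3K4me3 in 27, against 79.3%. None of the marks had a counted start peak in 11 genes, among them FAM115C, GCNT1, SLC24A3 and PCDH7.

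H3K27Ac lay towards library 2 at these starts. The median M in the authors' deposited table was -0.30 over 36 genes (95% interval of the median -0.45 to -0.06), against 0.09 over 10321 tested genes, and 26 of 36 were below 0, against 39% of tested genes. An M of -0.5 or less was found at 10 starts (background 5.9%). At 2-fold or more in that direction were HTR7 at -1.50, SLC26A2 at -1.17 and ADAMTS15 at -1 in the authors' deposited table (background 1.08%). IRF1 and DUOXA1 were each at -0.87, PITRM1 at -0.80 and FZD10 at -0.69 in the authors' deposited table. None of the 48 genes was past 2-fold in the other direction (background 2.52%), and the highest M in the authors' deposited table was 0.51 at GPCPD1. The 50 starts with a peak among genes still higher at 24 hr had a median of -0.395, with 44 below 0. The interval of the median takes genes as independent, which they are not, and a difference between the sets of genes was not tested.

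For H3K9Ac the median M in the authors' deposited table was -0.06 over 33 genes (interval -0.28 to 0.28), against 0.08 for 10290 tested genes, with 18 below 0, against 39.5% of tested genes, and with 6 at -0.5 or less (background 6.28%). STK10, at -1.62 (background 1.12%), and IRF1, at 1.59 (background 1.77%), were the 2 starts past 2-fold in the authors' deposited table. For H3K4me3 it was -0.23 over 27 genes (interval -0.44 to 0.22), against 0.10 for 9407 tested genes, with 18 below 0, against 41.6%, and with 7 at -0.5 or less (background 13.4%). At -1 or less was 1 start (background 3.09%), and 0 were at 1 or more (background 4.69%). ARHGEF26-AS1 was lowest at -2.82, followed by ADAMTS15 at -0.88 and KCTD12 at -0.78, and MBNL2 was highest at 0.70, in the authors' deposited table. Library order may differ between marks, so signs are not compared between them. KCTD12 had M of -0.55, -0.78 and -0.78 and ID3 had -0.40, -0.40 and -0.10 for H3K27Ac, H3K9Ac and H3K4me3 in the authors' deposited table.

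**Figure D5:**
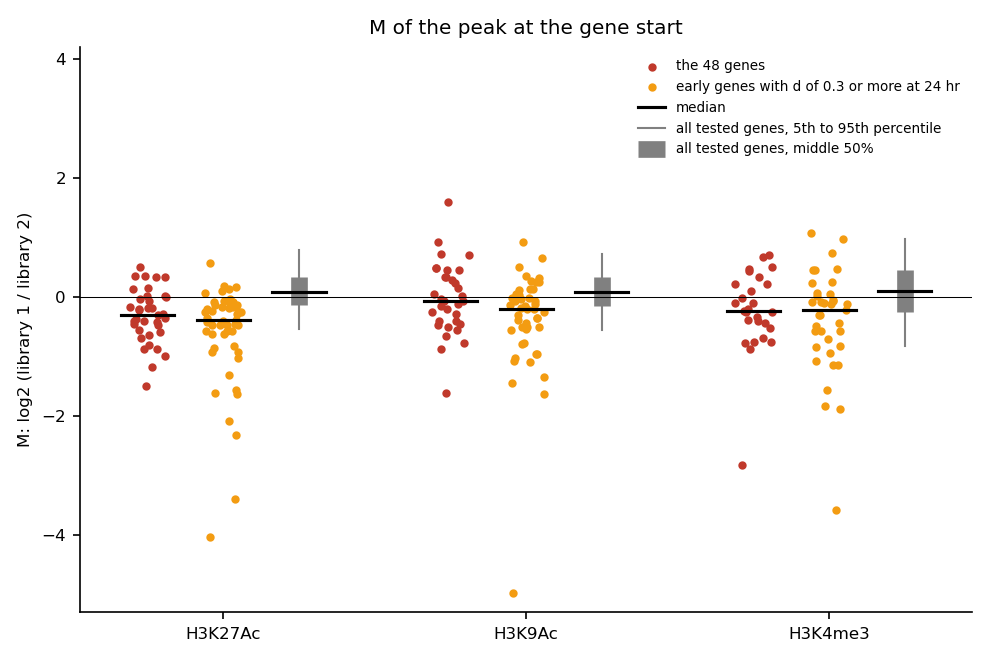
M, the log2 ratio of library 1 over library 2, of the peak at the gene start is plotted for the 48 genes (red), for early genes with d of 0.3 or more at 24 hr (orange) and for all tested genes (grey bars, the middle 50% and the 5th to 95th percentile), with black lines at the medians, 1 library on each side. The H3K27Ac median of the 48 genes is -0.30, against 0.09 for all tested genes, and the H3K9Ac median is -0.06.

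The limits of the rule cut through a continuum. Just inside were PLXNA2, with d of 0.51 at 2 hr, KIAA0247, with 0.50 at 6 hr, and STK10 and ADAMTS15, with 0.30 at 24 hr. Just outside were KIAA1199 (0.497), KCNK6 (0.49) and OLR1 (0.49) at 2 hr, and ZNF30 (0.49), C18orf25 (0.44) and SGK223 (0.44) at 6 hr. CCDC71L (0.30), NFIL3 (0.33) and FZD9 (0.34) were left out by their value at 24 hr. Of the level limit, ARHGEF26-AS1 was nearest inside, at 1.07 RPKM, and AIM2 nearest outside, at 0.995 RPKM.

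Of 291 expressed genes on any of the pathway lists, 5 were among the 48 genes (ID3, FZD10, LGR4, CXCL1 and IRF1), or 1.72%, against 0.400% of all expressed genes. The lists were chosen with earlier results known, so no support is drawn from these shares. None of the 48 genes was among the 32 expressed members of the IL-13 receptor and JAK-STAT list, whose medians were 0.04, 0.03 and -0.02. On that list CISH and SOCS1 reached 0.5 at both early times, against 1.02% of all expressed genes, and stayed higher. None of the 48 was among 38 expressed immediate early genes, whose medians were -0.09, -0.14 and -0.27. Nor was any among the Notch, EGF receptor, squamous differentiation, circadian clock and unfolded protein lists. The clock list holds ARNTL but not its relative ARNTL2, which is among the 48 genes. Of the squamous differentiation list, 10 of 15 expressed members were at -0.5 or less at 6 hr, against 1.64% of all expressed genes, and 11 at 24 hr, against 4.06%.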

How the data were processed

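RNA tables at 2, 6 and 24 hr hold, per the file headers, RPKM values from the authors, with their log2 ratio and adjusted p-value. The mark tables hold M and A (log2) and a −log10 p-value for each peak, deposited by the authors under the column names of MAnorm. Per the submitters' processing notes, RNA went through TopHat2 2.0.9, and ChIP-seq through MACS2 2.0.10.20130712 and Bowtie 1.0.0. DESeq and build hg19 are named for both assays. How reads were counted or pooled is not given in the sources used here. The 6 columns of raw reads per library, which are not tied to a sample, and the input were not used.

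With 1 library per group no model was fitted. Medians have an exact binomial 95% interval. A start peak is the one of highest level at the start in the RNA table. Members, roles and lists were chosen with earlier results of these data known. Every member is named, beyond the planned rule of the 25 largest, list members and those at the limits and extremes. Pseudocount, limits, scaling, peak choice and level were varied. Software was SciPy 1.17.1, NumPy 2.4.6, pandas 2.3.3 and matplotlib 3.10.9 on Python 3.11.15.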

Additional observations from a re-analysis of the deposited data

How the results depend on the processing

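The number of genes found by the rule is set by its limits. It was 28 with a pseudocount of 1 (27 of them among the 48), 28 with a minimum of 5 RPKM, 139 with no minimum, 31 with an early limit of 0.6 and 25 with a limit of 0 at 24 hr. It was also 25 when each early IL-13 library had to exceed the other early control by 0.5 as well, an alternative chosen after seeing the data. It stayed within 1.5 times under the other settings, at 48 to 65 genes, and the authors' log2 ratios gave 53, with 47 shared. The median change from 6 to 24 hr was 0.011 in IL-13 libraries for members of at least 5 RPKM, against -0.04 for all 48. In controls it was 0.45 after centring on all tested genes, against 0.63. The H3K4me3 median was 0.22 over the 5 starts of a level of at least 100, a setting that leaves few genes. The other medians of M lay inside the interval of the reported one. No paired analysis was possible because each group holds 1 library. Leaving out a replicate could not be done for the same reason. Genes under 1 RPKM, such as SLC24A3 at 24 hr, rest on few reads.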

Other observations

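Some genes missed the rule by level or length alone. These were chosen with the values in view. SH2D1B, an adaptor protein of lymphocyte receptors, met all other limits but stayed under 1 RPKM, at 0.328, 0.873 and 0.0281 RPKM with IL-13 at 2, 6 and 24 hr, against 0.0147, 0.0129 and 0.0582 RPKM in the controls. AIM2, a sensor of cytosolic DNA, stood at 0.995, 0.797 and 1.30 RPKM with IL-13, against 0.607, 0.330 and 1.64 RPKM in the controls. Of the short loci, SNORA9 stood at 2.54, 1.99 and 0.536 RPKM with IL-13, against 1.32, 0.725 and 0.554 RPKM in the controls. With no replicate, each is a value of single libraries.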
